A study of Mus musculus with 6 samples.

Results

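The genes described here are the desaturases and elongases of liver that act mainly on polyunsaturated and very long-chain fatty acids, together with their close relatives: *Fads1*, *Fads2*, *Fads3*, *Fads6*, *Scd2*, *Elovl1*, *Elovl2*, *Elovl3*, *Elovl5* and *Hacd3*. They were chosen by gene symbol as fatty acid desaturases and elongases other than *Scd1* and *Elovl6*, and all 10 were found among the 56691 genes of the deposited liver RNA-seq table. Liver RNA was sequenced from 3 KPF dams (replicates 1, 2 and 3) and 3 WPF dams (replicates 2, 3 and 4). KPF dams were h*Chrebp* KO mice, which carry *Chrebp* flox/flox alleles (exon 2 of *Mlxipl* is floxed) and 1 allele of Alb-Cre, a Cre driven by the albumin promoter that acts in hepatocytes, so that other liver cells keep the gene. WPF dams were *Chrebp* flox/flox mice without Cre, which the sample labels call WT. All dams were of the C57BL/6J background, pregnant by *Chrebp* flox/flox males, fed a high-fructose diet (HFrD) from mating on and killed in late gestation, so that no group on normal chow enters the comparison. The age of the dams was not given in the sources used here, and each library is labelled only as a separate sample, so p values measure the spread between these 6 libraries.

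ChREBP, the product of *Mlxipl*, is a transcription factor that responds to sugar and drives glycolytic and lipogenic genes of liver. Essential fatty acids of the diet are converted to arachidonic acid, eicosapentaenoic acid and docosahexaenoic acid by alternating desaturation and elongation in the endoplasmic reticulum. FADS2 is the delta-6 desaturase that opens the pathway, ELOVL5 lengthens its product, FADS1 is the delta-5 desaturase that follows, and ELOVL2 carries out the later elongations that lead to docosahexaenoic acid. Each round of elongation takes 4 steps: condensation by an ELOVL enzyme, a first reduction by HSD17B12, dehydration by a HACD enzyme such as HACD3, and a second reduction by TECR. Not every member works on polyunsaturated chains: ELOVL1 and ELOVL3 extend saturated and monounsaturated chains, FADS3 acts on sphingoid bases, and SCD2 makes monounsaturated fatty acids, mainly outside the adult liver.

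The libraries held between 10694496 and 11567941 counted reads in KPF and between 12988865 and 14496630 in WPF, without overlap between the groups. Values per library are given as TMM-normalized CPM, reads scaled to a common library size (factors between 0.888 and 1.18). Levels of different genes are compared only as FPKM, which also divides by exonic length. *Mlxipl*, the targeted gene, measured 182, 709 and 860 CPM in KPF (replicates 1, 2 and 3) against 974, 1280 and 891 CPM in WPF (replicates 2, 3 and 4). The groups did not overlap, but the difference did not pass the test (log2 fold change -0.84, adjusted p = 0.584 by the edgeR quasi-likelihood test), and the counts cover the whole gene, floxed exon included.

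Some libraries stood apart. KPF replicate 2 had a summed FPKM of 1920 over the 5 genes of a striated muscle list, against 3.93 to 6.25 in the other libraries. All 8 hepatocyte markers passed the FPKM minimum, with a summed FPKM of 40600 to 46600 in KPF and 56300 to 76200 in WPF and with 0 of 8 called. Of the stellate cell and fibroblast list 5 of 11 tested genes were called higher in KPF, beside 5.83% of all tested genes. Its summed FPKM was 79.2 to 247 in KPF and 90.0 to 101 in WPF. Among the 5, *Des* was at 493 CPM in KPF replicate 2 and at 7.42 to 54.5 CPM in the other libraries. An adipocyte list (2 tested of 6, with 1 called higher) summed to 6.88 to 36.0 in KPF and 2.87 to 8.63 in WPF, and 1 of its 6 genes was at 0 in every library. The log2 ratio of *Dbp* to *Arntl*, clock genes of opposite phase, was 3.92, 7.40 and -2.13 in KPF replicates 1, 2 and 3 and -3.29, -4.18 and 7.45 in WPF replicates 2, 3 and 4, so that both groups held libraries of either phase. The part of these differences in the values below was not tested unless a value without the library, or within libraries of the same sign of this log2 ratio, is given.

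The question of the comparison was which liver genes differ between h*Chrebp* KO and *Chrebp* flox/flox dams under HFrD, and it is put here to the desaturases and elongases. A gene was called when edgeR's quasi-likelihood test gave it an unadjusted p under 0.05 with a difference of 1.5-fold or more, and adjusted p values are Benjamini-Hochberg over the 10866 genes tested, those whose FPKM averaged 1 or more. *Elovl2* alone among the 8 members tested was called, lower in KPF by 1.90-fold, and no member was called higher. *Elovl5* had the lowest fold change of the members, 2.77-fold lower in KPF, but WPF replicate 4 lay inside the KPF range and the difference did not pass. *Fads1*, *Fads2* and *Fads3* had log2 fold changes of -0.56, -0.58 and -0.60, none of which passed. *Scd2* and *Elovl3* were below the FPKM minimum and have no adjusted p.

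Among all tested genes, 3.98% were called lower and 5.83% higher, and 1 called member of 8 is too few to be set apart from this background. Of the tested genes, 0% had an adjusted p under 0.05 by edgeR (1176 had an unadjusted p under 0.05, and DESeq2 gave 156 genes at an adjusted p under 0.05). For none of the 10 members did the 3 KPF libraries all lie on one side of the 3 WPF libraries, against 8.14% of tested genes with every KPF library below every WPF library and 7.55% with every one above. The log2 fold change was negative in 6 of the 8 tested members, with a median of -0.57 against 0.02 over all tested genes. For 6 of the 8 the 95% interval reached a change of 2-fold in at least 1 direction, so that a change of that size was not excluded for them by these 3 dams against 3.

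**Figure D1:**
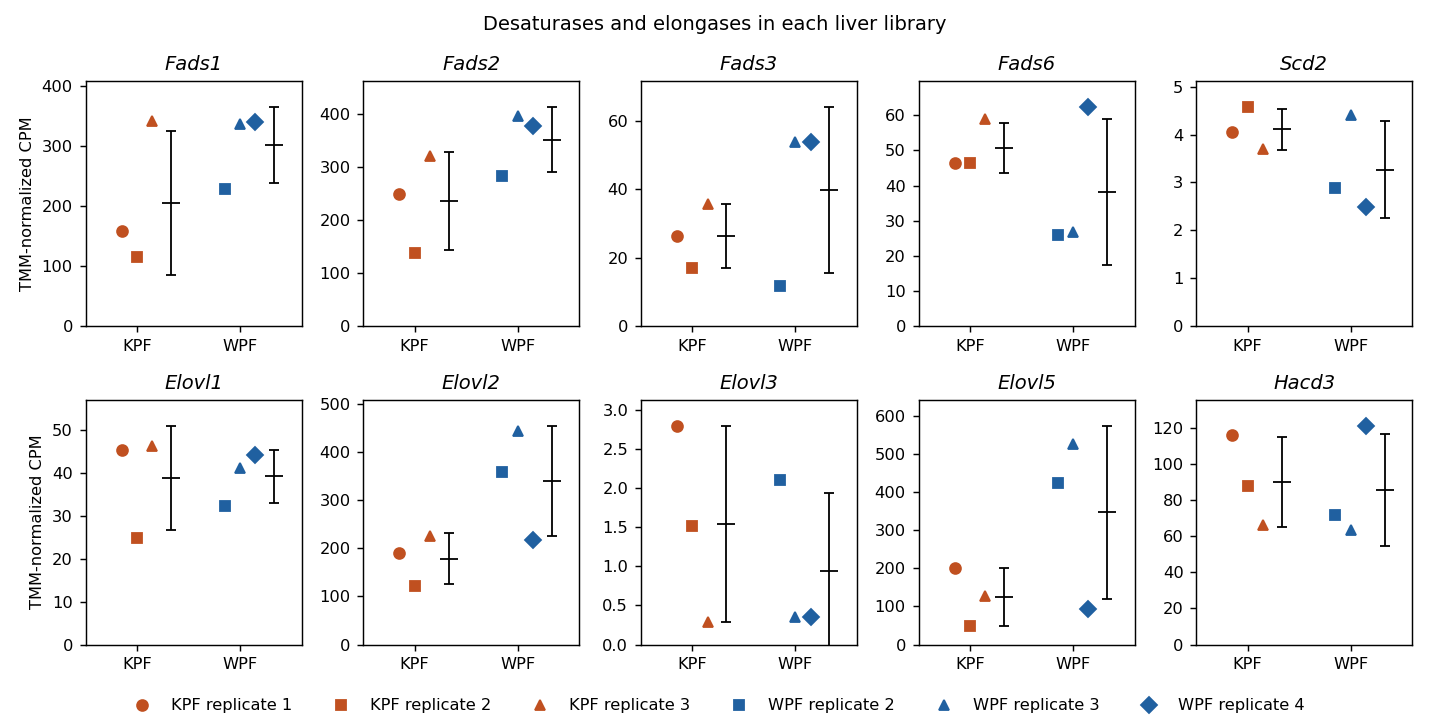
TMM-normalized CPM (vertical axes, from 0) of each member in the 3 KPF and 3 WPF libraries; each point is 1 library, and the black mark with its bar is the group mean with its SD, the lower end of which is cut at 0 for Elovl3 in WPF. The groups overlap for all 10 members, and WPF replicate 4 sits far below WPF replicates 2 and 3 for Elovl5 and Elovl2.

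The first enzymes of the pathway are the desaturases. *Fads2*, the delta-6 desaturase (ENSMUSG00000024665, GRCm39 chromosome 19, 10040129 to 10079110, minus strand), was the member with the highest mean FPKM in both groups, 67.0 ± 23.7 in KPF and 113 ± 32.1 in WPF (SD, n = 3). In replicates 1, 2 and 3 of KPF it reached 250, 137 and 322 CPM, against 283, 397 and 377 CPM in replicates 2, 3 and 4 of WPF. KPF replicate 2 was the lowest library, and KPF replicate 3 was above WPF replicate 2. Its log2 fold change was -0.58 (SE 0.35, 95% interval -1.40 to 0.24, adjusted p = 0.576 by the edgeR quasi-likelihood test). Without KPF replicate 2 it was -0.31, and without KPF replicate 2 and WPF replicate 4 together -0.26.

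*Fads1*, the delta-5 desaturase (ENSMUSG00000010663, chromosome 19, 10160252 to 10174241, plus strand), had 158, 115 and 342 CPM in KPF against 229, 336 and 340 CPM in WPF, in the same order of replicates. KPF replicate 3 was the highest of all 6 libraries, whereas the other 2 KPF libraries were below every WPF library. The log2 fold change was -0.56 (SE 0.43, 95% interval -1.55 to 0.44, adjusted p = 0.659 by the edgeR quasi-likelihood test). Without KPF replicate 3 it was -1.14 with an unadjusted p of 0.0114, so that *Fads1* was called only when this library was left out, among the libraries left out one at a time. Without KPF replicate 2, the library with the muscle genes, it was -0.28 (unadjusted p = 0.497), and without KPF replicate 2 and WPF replicate 4 together -0.19. *Fads1* and *Fads2* lie on opposite strands with a gap of 81.1 kb, and among all pairs of members their patterns over the 6 libraries were the most alike, the root mean square difference of centred log2 CPM being 0.22. The ratio of *Fads1* to *Fads2* FPKM within a library lay between 0.434 and 0.726, with a difference in log2 of -0.04 between KPF and WPF (exact two-sided permutation test, p = 0.8).

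*Fads3*, 2.65 kb from *Fads2* (ENSMUSG00000024664, chromosome 19, 10018933 to 10037474, plus strand), had 26.2, 16.9 and 35.6 CPM in KPF against 11.8, 53.7 and 53.8 CPM in WPF. WPF replicate 2 was the lowest library and the other 2 WPF libraries were the highest, so the WPF group spanned the whole KPF range. KPF minus WPF, the log2 fold change was -0.60 (SE 0.55, 95% interval -1.88 to 0.67, adjusted p = 0.706 by the edgeR quasi-likelihood test). Without WPF replicate 2 it was -1.03 with an unadjusted p of 0.0204, whereas it was -0.33 without WPF replicate 3 or without WPF replicate 4, -0.37 without KPF replicate 2 and -0.10 without KPF replicate 2 and WPF replicate 4 together. In the same WPF replicate 2 the FPKM of *Fads3* was 0.0363 of that of *Fads2*, against 0.0909 to 0.124 in the other 5 libraries, although the genes are neighbours.

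*Fads6*, a less studied relative on chromosome 11 (ENSMUSG00000044788, 115170448 to 115188489, minus strand), had 46.5, 46.5 and 58.9 CPM in KPF against 25.8, 26.8 and 62.3 CPM in WPF. WPF replicates 2 and 3 were below every KPF library and WPF replicate 4 was above them all. This gave a log2 fold change of 0.40 (SE 0.37, 95% interval -0.45 to 1.25, adjusted p = 0.706 by the edgeR quasi-likelihood test). Without WPF replicate 4 it was 0.94 with an unadjusted p of 0.00592, and without both this library and KPF replicate 2 it was 0.99 (unadjusted p = 0.0056), values at which *Fads6* would be called higher. It was 0.19 without WPF replicate 2 and 0.20 without WPF replicate 3.

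*Scd2* (ENSMUSG00000025203, chromosome 19, 44282113 to 44295303, plus strand) was at a low level, with 33 to 62 reads per library. It had 4.05, 4.57 and 3.70 CPM in KPF against 2.89, 4.41 and 2.49 CPM in WPF, and the ranges overlapped (log2 fold change 0.33, SE 0.34, 95% interval -0.47 to 1.13). Its paralog *Scd1*, which makes oleic acid in adult liver, lies 87.6 kb away. Reads that fit both genes could make the count of *Scd2* uncertain, which was not tested. The ratio of *Scd2* to *Scd1* FPKM was 0.0161, 0.0419 and 0.0161 in KPF and 0.000445, 0.000491 and 0.00639 in WPF. Every KPF library was above every WPF library, a difference of 4.31 in log2 (exact two-sided permutation test, p = 0.1, the smallest that 3 against 3 can give, adjusted p = 0.6 over 8 ratios), beside the lower level of *Scd1* described below.

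*Elovl5* and *Elovl2* are the elongases that act on polyunsaturated chains. *Elovl5* (ENSMUSG00000032349, GRCm39 chromosome 9, 77824646 to 77891801, plus strand) had 200, 49.4 and 126 CPM in KPF against 424, 525 and 92.0 CPM in WPF. WPF replicates 2 and 3 stood above all 4 other libraries, while WPF replicate 4 was below 2 of the 3 KPF libraries. Over the 6 libraries *Elovl5* spanned 10.6-fold, the widest range of the 10 members. The mean was 125 ± 75.3 CPM in KPF and 347 ± 227 CPM in WPF (SD, n = 3), and the log2 fold change was -1.47 (SE 0.70, 95% interval -3.10 to 0.16, unadjusted p = 0.0703, adjusted p = 0.489 by the edgeR quasi-likelihood test; exact two-sided permutation test on CPM, p = 0.3). The call turned on single libraries and on the scaling, filter and tool. *Elovl5* was called without KPF replicate 1 (-1.98, unadjusted p = 0.0437), without WPF replicate 4 (-1.93, unadjusted p = 0.00999) and without KPF replicate 2 and WPF replicate 4 together (-1.55, unadjusted p = 0.00306). With all 6 libraries it was called in DESeq2 (-1.46, unadjusted p = 0.0185), with library totals in place of TMM factors (-1.55, unadjusted p = 0.043) and without an FPKM minimum (-1.54, unadjusted p = 0.00506). It was also called with the replicate number as a block (-2.58, unadjusted p = 0.00123), a fit whose difference rests on replicates 2 and 3 alone. It was not called when KPF replicate 2 (-1.10), KPF replicate 3 (-1.48), WPF replicate 2 (-1.30) or WPF replicate 3 (-1.04) was left out. In none of these did its adjusted p reach 0.05.

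*Elovl2* (ENSMUSG00000021364, chromosome 13, 41335857 to 41373881, minus strand) had 190, 121 and 226 CPM in KPF against 359, 445 and 217 CPM in WPF. WPF replicates 2 and 3 were again the highest libraries, and WPF replicate 4 was just below KPF replicate 3, the only crossing of the groups. The mean was 179 ± 53.3 CPM in KPF and 340 ± 115 CPM in WPF (SD, n = 3), a log2 fold change of -0.93 (SE 0.36, 95% interval -1.77 to -0.09, unadjusted p = 0.0349, adjusted p = 0.442 by the edgeR quasi-likelihood test; exact two-sided permutation test on CPM, p = 0.2). The call was lost without KPF replicate 1 (unadjusted p = 0.0631), KPF replicate 2 (0.0877), WPF replicate 2 (0.0841) or WPF replicate 3 (0.132), the log2 fold change then lying between -0.97 and -0.68. Without KPF replicate 2 and WPF replicate 4 together it was -0.96 (unadjusted p = 0.0148).

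The libraries were also compared within each sign of the log2 *Dbp* to *Arntl* ratio, as a description, since 1 or 2 libraries then stand for a group. Libraries on the same side were not matched in the ratio, which ran from 3.92 to 7.45 on one side and from -4.18 to -2.13 on the other. Where *Dbp* was above *Arntl*, *Elovl5* was at 49.4 and 200 CPM in KPF replicates 2 and 1, against 92.0 CPM in WPF replicate 4, a mean log2 difference of 0.11. Where *Dbp* was below *Arntl*, it reached 126 CPM in KPF replicate 3, against 424 and 525 CPM in the other 2 libraries, WPF replicates 2 and 3, a difference of -1.90. On the first side the single WPF library thus lay between the 2 KPF libraries, so that the mean difference there hides values on either side of it. On the second side the single KPF library was below both WPF libraries. Whether the difference of *Elovl5* depended on the ratio was not tested. *Elovl2* was lower in KPF on both sides, by -0.52 in log2 where *Dbp* was higher and by -0.82 where it was lower. *Fads1*, *Fads2* and *Fads3* differed by -1.33, -1.03 and -1.35 where *Dbp* was higher and by 0.30, -0.06 and 0.50 where it was lower. With the ratio as a covariate in edgeR, the log2 fold change was -0.59 (unadjusted p = 0.311, adjusted p = 0.789) for *Elovl5*. For *Elovl2* it was -0.65 (unadjusted p = 0.0423, adjusted p = 0.673). The ratio was chosen after seeing the data.

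**Figure D2:**
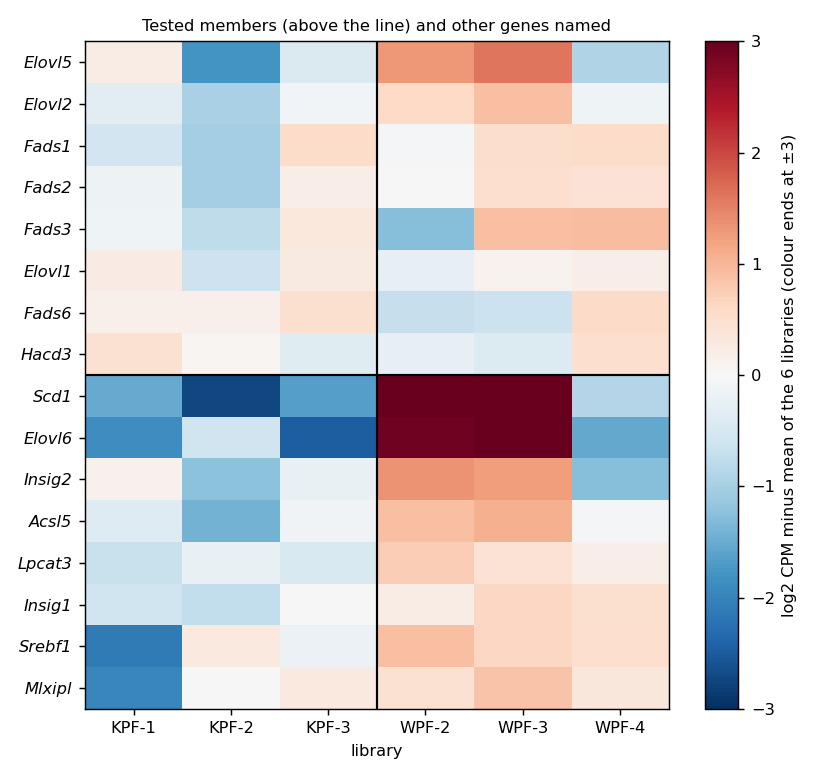
Centred log2 CPM (colour, each gene minus its mean over the 6 libraries, colours ending at 3 in either direction) of the 8 tested members, above the horizontal line, and of other genes named in the text, below it; columns are libraries, KPF left and WPF right of the vertical line. Elovl5, Elovl2, Scd1, Elovl6 and Insig2 are high in WPF replicates 2 and 3 and lower in WPF replicate 4, and Fads1, Fads2, Elovl1, Elovl2 and Elovl5 are lowest in KPF replicate 2.

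The proximal promoters of the members that led the comparison are shown to place the short motifs found in them. Windows of 300 bases, 250 before to 50 after a transcription start (RefSeq, GRCm38.p6), were given for 7 of the 10 members, in 9 windows; *Fads1*, *Scd2* and *Elovl3* had no entry. The 250 bases before the start are printed for *Elovl5* (chr9:77917115-77917364, plus strand), for 1 of the 2 windows of *Elovl2* (chr13:41220404-41220653, minus strand) and for *Fads2* (chr19:10101504-10101753, minus strand), with capitals marking 3 motifs on either strand. These are the E-box, spelt CACGTG, the NF-Y box, spelt CCAAT or in reverse complement, and the GC box, spelt GGGCGG or in reverse complement.
Elovl5: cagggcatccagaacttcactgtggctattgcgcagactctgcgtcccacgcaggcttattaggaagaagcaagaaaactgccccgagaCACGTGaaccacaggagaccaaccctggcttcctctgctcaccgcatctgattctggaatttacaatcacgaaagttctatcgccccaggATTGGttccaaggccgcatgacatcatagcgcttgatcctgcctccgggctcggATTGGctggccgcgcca
Elovl2: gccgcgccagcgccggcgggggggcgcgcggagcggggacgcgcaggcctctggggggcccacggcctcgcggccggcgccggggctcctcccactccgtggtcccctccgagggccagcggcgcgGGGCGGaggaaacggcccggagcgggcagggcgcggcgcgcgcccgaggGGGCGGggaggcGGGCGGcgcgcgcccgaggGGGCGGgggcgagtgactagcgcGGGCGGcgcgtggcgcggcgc
Fads2: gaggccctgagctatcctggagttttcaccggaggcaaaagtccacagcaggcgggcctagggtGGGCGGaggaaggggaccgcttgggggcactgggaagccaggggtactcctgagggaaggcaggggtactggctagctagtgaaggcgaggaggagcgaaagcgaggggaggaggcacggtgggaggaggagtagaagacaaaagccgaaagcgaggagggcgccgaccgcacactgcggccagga

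*Elovl5* held an E-box at position -161 from its start and NF-Y boxes at -71 and -17, with no GC box in the window. The *Elovl2* window held 5 GC boxes, and that of *Fads2* 1 GC box at -186. Searched on both strands, the E-box was in 2 of the 9 members' windows (*Elovl5* and *Hacd3*) and in 7.15% of all 32851 windows of the table, the NF-Y box in 4 of 9 and 37.4%, and the GC box in 7 of 9 and 35.7%. The sterol regulatory element TCACNCCAC was in 0 of 9 and 1.24% of all windows, the carbohydrate response element, to which ChREBP binds, in 0 of 9 and 0.557%, and direct repeat 1, to which PPARα binds, in 0 of 9 and 0.0396%. These are matches of letters in short windows and say nothing of binding, or of elements outside the windows.

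*Elovl1* and *Elovl3* belong to the branch that lengthens saturated and monounsaturated chains. *Elovl1* (ENSMUSG00000006390, chromosome 4, 118285290 to 118290150, plus strand) had 45.3, 24.8 and 46.2 CPM in KPF against 32.3, 41.0 and 44.0 CPM in WPF, with KPF replicate 2 the lowest library and the other 2 KPF libraries the highest. Its fitted log2 fold change was -0.01 (SE 0.28, 95% interval -0.67 to 0.64), and its sign changed with the scaling and the libraries used. *Elovl1* overlaps *Cdc20*, a cell cycle gene on the other strand, by 53 bases, and the *Cdc20* counts were 20, 29 and 696 in KPF and 18, 7 and 336 in WPF. Since the strand used in counting is not stated, reads in the overlap cannot be assigned with certainty.

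*Elovl3* (ENSMUSG00000038754, chromosome 19, 46120336 to 46124133, plus strand), known for brown fat and skin and for a clock-driven rhythm in liver, was counted with only 3 to 29 reads per library. It had 2.80, 1.52 and 0.292 CPM in KPF against 2.10, 0.356 and 0.356 CPM in WPF, and the groups overlapped over nearly their whole range (log2 fold change 0.75, SE 0.95, 95% interval -1.46 to 2.96). It overlaps *Pitx3* on the other strand by 10 bases, and *Pitx3* had 22 reads in KPF replicate 2 and 0 or 1 in the other libraries. Within libraries where *Dbp* was above *Arntl* the log2 difference was 2.53, and where it was below, -1.57.

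*Hacd3*, the dehydratase of the elongation cycle (ENSMUSG00000033629, chromosome 9, 64894265 to 64928975, minus strand), measured 116, 87.9 and 66.2 CPM in KPF against 71.9, 63.5 and 121 CPM in WPF. Its libraries spanned 1.90-fold, and the highest and the lowest of the 6 were both WPF libraries. The log2 fold change was 0.08 (SE 0.33, 95% interval -0.70 to 0.85), and it turned to -0.07 with library totals in place of TMM factors.

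**Figure D3:**
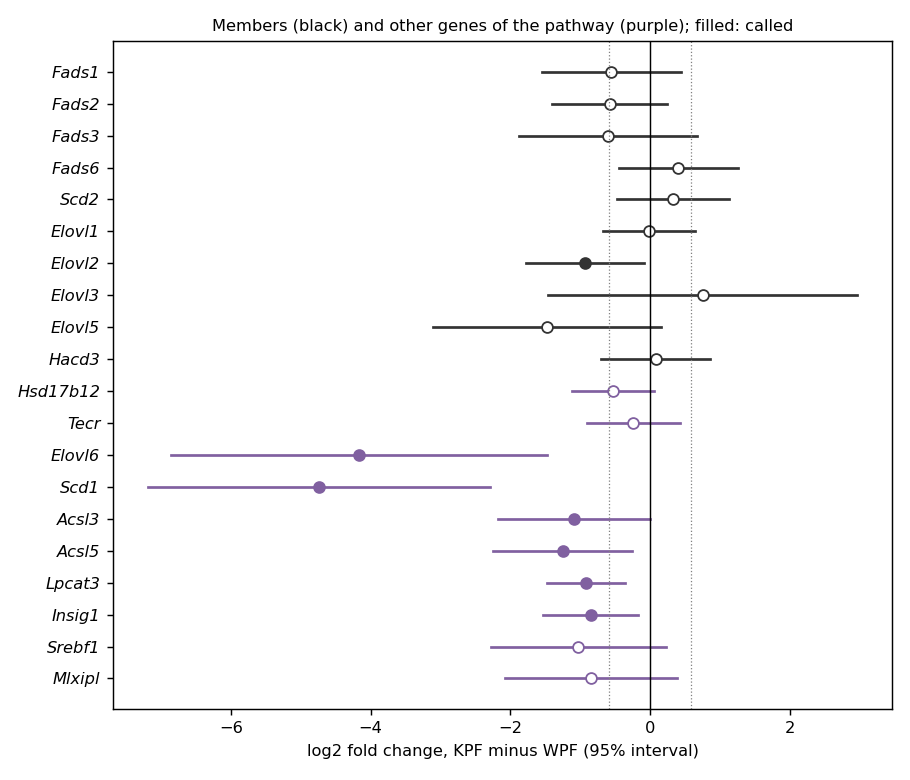
Fitted log2 fold change, KPF minus WPF (horizontal axis), with its 95% interval for the 10 members (black) and for other genes of the pathway named in the text (purple); filled circles mark genes called at 1.5-fold or more (dotted lines) with an unadjusted p under 0.05. Elovl2 is the only filled circle among the members, at -0.93, whereas Scd1 and Elovl6 are at -4.74 and -4.16.

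The members differed far more from each other than between the groups. By mean FPKM the order in KPF was *Fads2* (67.0), *Elovl2* (42.3), *Fads1* (39.5), *Elovl5* (33.5), *Hacd3* (31.7), *Elovl1* (13.4), *Fads6* (7.16), *Fads3* (6.47), *Elovl3* (0.753) and *Scd2* (0.713). In WPF it was *Fads2* (113), *Elovl5* (98.6), *Elovl2* (87.7), *Fads1* (66.2), *Hacd3* (33.4), *Elovl1* (15.1), *Fads3* (11.5), *Fads6* (6.20), *Scd2* (0.617) and *Elovl3* (0.447). *Elovl5* thus had rank 4 in KPF and rank 2 in WPF, but within WPF its rank was 1 in replicates 2 and 3 and 5 in replicate 4. Of the neighbours in these orders, *Hacd3* was above *Elovl1* without overlap of the libraries in both groups, as were *Elovl1* above *Fads6* and *Fads3* above *Elovl3* in KPF and *Fads6* above *Scd2* in WPF, and the other neighbours overlapped.

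Ratios between members in the same library do not depend on the scaling between libraries, and 8 ratios were compared by exact two-sided permutation tests with Benjamini-Hochberg adjustment. *Elovl2* to *Elovl5*, the later against the earlier polyunsaturated elongase, was 0.844, 2.17 and 1.59 in KPF and 0.751, 0.752 and 2.09 in WPF, so that WPF replicate 4 had the ratio of the higher KPF libraries (difference in log2 0.43, exact p = 0.5, adjusted p = 0.8). *Elovl5* to *Hacd3* was 1.32, 0.432 and 1.46 in KPF and 4.54, 6.36 and 0.587 in WPF, with a difference of -1.45 (exact p = 0.3, adjusted p = 0.6). *Elovl1* to *Elovl5* differed by 1.29 and *Fads2* to *Hacd3* by -0.75 (exact p = 0.3 for each, adjusted p = 0.6), and *Fads3* to *Fads2* by 0.28 and *Elovl3* to *Elovl1* by 0.80 (exact p = 1.0 for each). None of the 8 ratios passed.

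The make-up of both enzyme families in WPF replicates 2 and 3 was led by *Scd1* and *Elovl6*, the genes for making and lengthening monounsaturated and saturated chains from new synthesis, and in the other 4 libraries *Fads2* held the highest share of the desaturases. *Scd1* took 27.2%, 20.4% and 18.3% of the summed FPKM of the desaturases in KPF and 89.3%, 88.7% and 25.4% in WPF, the sum itself being 95.9 to 204 in KPF and 326 to 1970 in WPF. *Fads2* in turn held 44.7%, 42.5% and 42.6% in KPF and 6.52%, 6.54% and 40.8% in WPF, while the groups overlapped in its own level. *Elovl6* took 4.90%, 21.9% and 3.64% of the summed elongase FPKM in KPF and 43.8%, 50.2% and 7.55% in WPF. *Elovl2* held 37.1%, 43.6% and 49.9% in KPF and 22.7%, 20.2% and 52.0% in WPF, and *Elovl5* 43.9%, 20.1% and 31.4% in KPF and 30.2%, 26.8% and 24.9% in WPF. For *Fads2* and *Elovl2* the shares of WPF replicate 4 were near those of the KPF libraries and not near those of the other 2 WPF libraries.

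**Figure D4:**
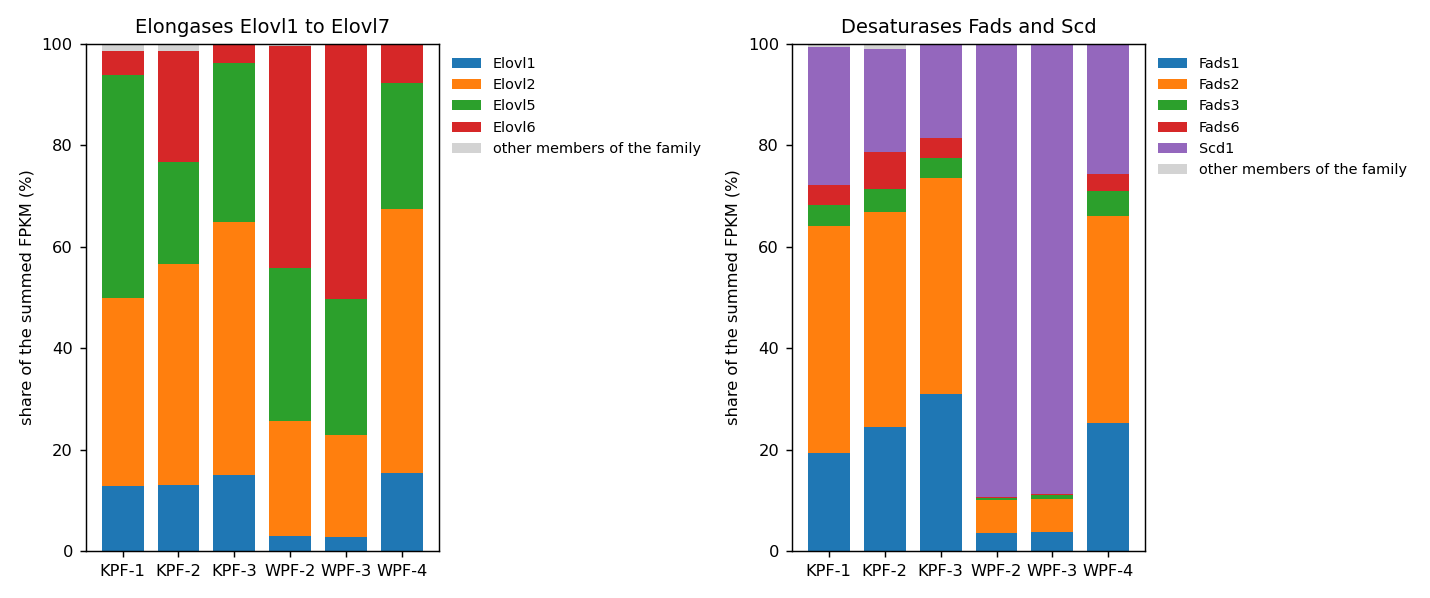
Share of the summed FPKM (vertical axes, %) held by each gene among the elongases Elovl1 to Elovl7 (left) and among the Fads and Scd desaturases (right), 1 bar per library. Scd1 holds 88.7% and more of the desaturase FPKM in WPF replicates 2 and 3, and 27.2% and less in the other 4 libraries.

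The genes around the members were taken from 7 lists of 60 genes, chosen with earlier results of these data known, so that their counts are a description. Of the 60 genes, 46 were tested. Of these, 6 were called lower in KPF and 0 higher, beside 3.98% and 5.83% of all tested genes; the median log2 fold change was -0.20. In edgeR 0 of the 46 passed at an adjusted p under 0.05 (1176 of all tested genes had an unadjusted p under 0.05), whereas in DESeq2 3 did: *Scd1* (adjusted p = 0.00308), *Lpcat3* (0.0478) and *Elovl6* (0.0485). Of the other genes of the elongation cycle 1 of 5 tested was called lower, of the other desaturases 1 of 2, of acyl-CoA activation 2 of 7, of phospholipid acyl exchange and transport 1 of 5, of lipid regulators 1 of 13, of the cytochrome b5 system that supplies electrons to desaturases 0 of 4, and of the peroxisomal steps that shorten very long chains 0 of 10.

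*Elovl6* measured 40.7, 98.5 and 26.7 CPM in KPF against 1120, 1790 and 51.0 CPM in WPF, with WPF replicate 4 within the KPF range (log2 fold change -4.16, SE 1.16, adjusted p = 0.430 by the edgeR quasi-likelihood test and 0.0485 by DESeq2). *Scd1* measured 226, 97.6 and 205 CPM in KPF against 5760, 8000 and 349 CPM in WPF, every KPF library being below every WPF library (log2 fold change -4.74, SE 1.05, adjusted p = 0.415 by the edgeR quasi-likelihood test and 0.00308 by DESeq2). Where *Dbp* was above *Arntl*, the log2 difference was 0.31 for *Elovl6* and -1.23 for *Scd1*. Where it was below, the differences were -5.73 and -5.05, with 1 KPF library. Within the elongation cycle itself, *Hsd17b12* was lower in every KPF library, at 19.7 to 34.8 CPM against 35.2 to 38.0 CPM, but was not called (log2 fold change -0.53, adjusted p = 0.491 from edgeR), nor was *Tecr* (-0.24, unadjusted p = 0.426).

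Fatty acids enter desaturation and elongation as CoA esters. *Acsl5*, an acyl-CoA synthetase of liver, measured 122, 59.7 and 147 CPM in KPF against 298, 334 and 152 CPM in WPF, with no overlap (log2 fold change -1.25, SE 0.43, adjusted p = 0.430 from edgeR). *Acsl3*, another synthetase, measured 18.0, 21.6 and 30.7 CPM in KPF against 37.7, 87.0 and 24.5 CPM in WPF, with overlap (log2 fold change -1.09, adjusted p = 0.461 from edgeR). *Lpcat3*, which places polyunsaturated chains into phospholipids, measured 38.4, 52.1 and 44.2 CPM in KPF against 102, 82.7 and 70.0 CPM in WPF. All KPF libraries were below all WPF libraries, which fixes the same order on each side of the *Dbp* to *Arntl* ratio (log2 differences -0.65 and -1.06). The log2 fold change of *Lpcat3* was -0.92 (SE 0.24, unadjusted p = 0.00531, adjusted p = 0.430 from edgeR and 0.0478 from DESeq2).

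Among the regulators, *Insig1*, which holds SREBP proteins in the endoplasmic reticulum, measured 177, 159 and 269 CPM in KPF against 312, 412 and 370 CPM in WPF, again without overlap (log2 fold change -0.85, SE 0.29, adjusted p = 0.430 from edgeR). *Srebf1*, whose product SREBP-1c is a known activator of *Fads1*, *Fads2* and *Elovl5*, measured 21.7, 117 and 83.6 CPM in KPF against 176, 145 and 134 CPM in WPF. Its groups did not overlap, but it was not called (log2 fold change -1.03, unadjusted p = 0.0929, adjusted p = 0.517 from edgeR).

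For the 3 members with the widest range over the libraries, the tested genes with the most similar pattern were looked up by the root mean square difference of centred log2 CPM over the 6 libraries, a measure that uses the values of both groups and is a description. For *Elovl5* they were *Aldh18a1* (0.23), a gene of proline synthesis, *Insig2* (0.32), a relative of *Insig1*, and *Pgd* (0.36), of the pentose phosphate pathway. *Insig2* had 56.4, 21.8 and 44.2 CPM in KPF against 130, 123 and 21.4 CPM in WPF, with WPF replicate 4 as low as KPF replicate 2. Its log2 difference was 0.71 where *Dbp* was above *Arntl* and -1.52 where it was below. For *Elovl3* they were *Lgals4* (0.29), *Hnf1aos1* (0.33) and *Lrrc51* (0.40), and for *Fads3* *Tm2d1* (0.33), *Gm43573* (0.34) and *Oasl1* (0.36). Among the members themselves, *Fads2* was nearest to *Fads1* (0.22), then to *Elovl1* (0.32) and *Elovl2* (0.39), while *Fads6* and *Hacd3* were near to each other (0.42).

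**Figure D5:**
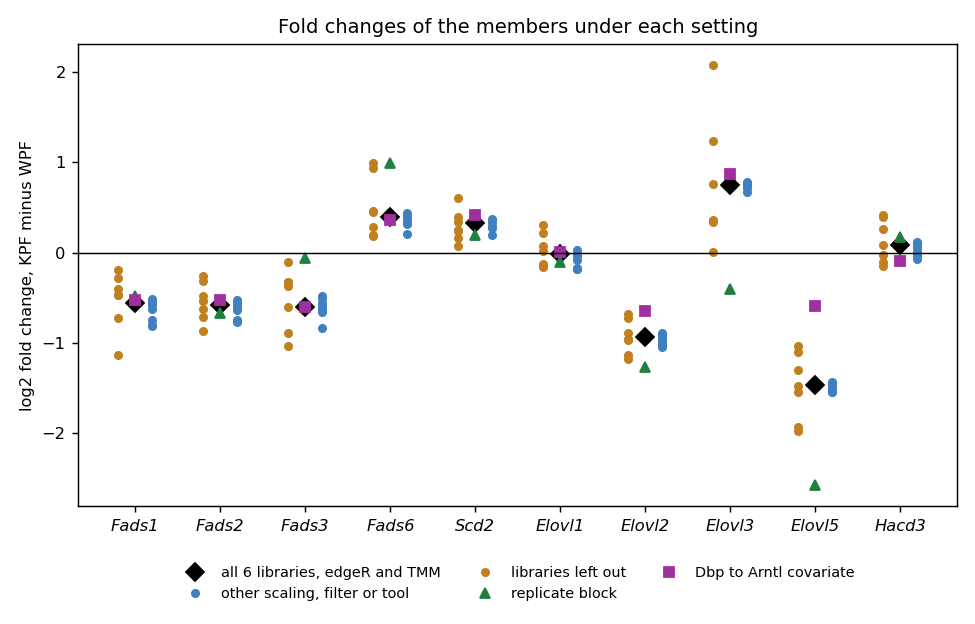
Log2 fold change, KPF minus WPF (vertical axis), of each member under the fit with all 6 libraries (black diamonds), with libraries left out (brown), with another scaling, filter or tool (blue), with the replicate number as a block (green triangles) and with the Dbp to Arntl ratio as a covariate (purple squares). Elovl5 runs from -2.58 to -0.59 and Elovl2 from -1.27 to -0.65, both below 0 throughout, whereas Elovl1, Elovl3 and Hacd3 cross 0.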

How the data were processed

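Poly(A) RNA of mouse liver was sequenced as paired ends. The authors deposited, for each gene, raw read counts and FPKM values, with GRCm39 coordinates and exonic lengths. The deposited FPKM equals count divided by exonic length and by library total, within 0.005. The submitters' processing notes name cutadapt 1.9.1, HISAT2 2.2.1, HTSeq 0.6.1 and DESeq2; the strand setting of counting is not given in the sources used here. Symbols matched 52073 of 56691 gene IDs (GENCODE M21).

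Counts of genes whose FPKM averaged 1 or more were fitted in edgeR 4.0.16 (R 4.3.3, quasi-likelihood test, TMM factors, library size the total over tested genes). Members below the minimum were fitted beside them, without adjusted p. The procedure was tested on simulated data whose planted changes were larger than that of any member, so power for smaller changes was not tested. Members and gene lists were chosen with earlier results of these data known. The genes named were the members, the targeted gene, fixed partners, and up to 3 called genes per list with the smallest p. Also named were the 3 nearest patterns of the 3 most variable members. *Cdc20*, *Pitx3*, *Dbp*, *Arntl* and *Des* were added after values were seen, and *Insig2* is also a list member. Alternatives were other scalings, filters and tools (DESeq2 1.42.0, limma 3.58.1 on log2(FPKM + 1) and log2(FPKM + 0.1)), left-out libraries and a replicate block. Libraries of a group differed beyond sampling noise (chi-square per gene at least 48.1). Whether equal replicate numbers pair the dams is not stated in the labels. Deviations from the group mean had a correlation of 0.059 for replicate 2 and -0.037 for replicate 3, too few numbers to settle it.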

Additional observations from a re-analysis of the deposited data

How the results depend on the processing

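Under 18 alternatives no member reached an adjusted p under 0.05 (lowest 0.130, *Elovl5* with the replicate block), and *Fads1*, *Fads2*, *Fads3*, *Elovl2* and *Elovl5* stayed below 0 and *Fads6* above. *Scd2* and *Elovl3* have no value in DESeq2, limma or with a minimum FPKM of 5. Members called lower were 2 with library totals, DESeq2, no filter, the replicate block, and KPF replicate 2 and WPF replicate 4 both left out, and 0 to 2 leaving out single libraries (0 without KPF replicate 2 or WPF replicate 3); members called higher were 1 with the block, 1 with both left out and 0 to 1 leaving out single libraries. The block fit (*Elovl5* -2.58, *Fads6* 0.99, *Elovl3* reversed at -0.40) rests on replicates 2 and 3, the only numbers in both groups. Whether these numbers pair the dams is not known. The members' median was -0.15 with both left out, and -0.88 to -0.29 leaving out single libraries. The 2 libraries and the *Dbp* to *Arntl* covariate were chosen after seeing the data.

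*Hacd3* turned negative with library totals (-0.07), either limma fit (-0.03 for each), the covariate (-0.09) and without KPF replicate 1, WPF replicate 2 or WPF replicate 3 (-0.15 to -0.03), single left-out libraries giving -0.15 to 0.40. *Elovl1* turned positive with upper-quartile factors (0.03), the covariate (0.01), both left out (0.31) and without KPF replicate 2, WPF replicate 3 or WPF replicate 4 (0.02 to 0.22), single left-out libraries giving -0.16 to 0.22. The *Fads1* to *Fads2* ratio ran from -0.22 to 0.15 (0.15 without KPF replicate 1) and *Fads3* to *Fads2* from -0.30 to 0.58 (-0.30 without WPF replicate 2).

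Genes at an adjusted p under 0.05 numbered 156 in DESeq2, 1 in limma with 0.1 added, 286 without a filter, 44 with both left out and 0 to 5 leaving out single libraries. Genes called higher, 634 in the report's fit, numbered 371 with library totals, 238 and 257 in limma with 1 and 0.1 added, 1576 without a filter, 255 at FPKM of at least 5 and 324 to 910 leaving out single libraries. Genes called lower, 432 there, numbered 716 with library totals, 681 in limma with 0.1 added, 910 without a filter, 205 at FPKM of at least 5, 657 with both left out and 246 to 709 leaving out single libraries. Higher genes were 59.5% of calls with TMM, 34.1% with library totals and 30.1% and 27.4% in limma, while the median of all genes moved from 0.02 to -0.12 with library totals. Other pathway genes called lower numbered 10 without a filter and 3 to 11 leaving out single libraries; those called higher numbered 1 without a filter, 3 with the block, 1 with both left out and 0 to 1 leaving out single libraries. At an adjusted p under 0.05, *Scd1* also passed without a filter, without WPF replicate 4 and with both left out, and *Elovl6* without a filter and with both left out. Where an alternative changed a call, the cause was not tested.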
